A study of Mus musculus with 10 samples.

Results

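The 34 genes described here encode the building blocks of basement membranes: the chains of collagen IV, XV and XVIII, the laminin chains, the nidogens, perlecan, agrin, a group of proteins that bind to these networks, and dystroglycan, a receptor that anchors cells to them. They were listed by gene family, with earlier results of these data known, and were matched by mouse symbol to the Ensembl identifiers of a count table of 22731 genes. Of the 34 genes, 33 were in the table and Papln was not analysed here. Reads were numerous enough to test 28 of them, among 16344 genes tested in all, and the other 5 (Col4a6, Lamb3, Lamc3, Fras1 and Frem2) are given by their reads.

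A basement membrane is a thin sheet of matrix that lies under epithelia and endothelia and around muscle, fat and Schwann cells. It is built from a laminin network, which binds to integrins and dystroglycan on the cell surface, and from a covalently linked collagen IV network, with nidogens and perlecan bridging the laminin and collagen layers. Fibroblasts of many tissues secrete several of these components, among them nidogens and the laminin chains alpha 2 and alpha 4, while other chains are made mainly by the epithelium.

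Mouse fibroblasts, sorted as CD45-, Epcam-, CD31-, Pdpn+ and Pdgfra+ cells, were sequenced in bulk after 3 kinds of culture. There were 3 libraries of fibroblasts kept with IL13KO ILC2s, 3 of fibroblasts kept with WT ILC2s and 4 of fibroblasts in monoculture, without ILC2s. ILC2s are group 2 innate lymphoid cells, tissue-resident lymphocytes that secrete IL-13 and other type 2 cytokines, and IL13KO ILC2s lack the Il13 gene product. The genotype of the fibroblasts is given as C57B6 in all 10 libraries, so the groups differ in the ILC2s added and not in the fibroblasts' label. The title of the study names the pancreas. The labels give no age, animal, day or culture for a library, so p-values measure the spread between these libraries, which may be technical. After coculture the cells were sorted again by Pdpn and Pdgfra, with CD45+ written in the description of that gate, and the labels do not say whether monocultures were sorted again.

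The deposited counts summed to between 17277432 and 17661229 reads per IL13KO coculture, 18801744 and 22087459 per WT coculture and 10710410 and 14366199 per monoculture. Il13 had 0 reads in the IL13KO cocultures, 271 in the WT cocultures and 0 in the monocultures. The fibroblast marker genes Pdgfra, Pdpn, Col1a1, Col1a2, Dcn, Lum and Thy1 were detected in every group, with Pdgfra at 747 ± 86.6, 633 ± 100.3 and 372 ± 4.81 CPM (counts per 1e6 reads, TMM-scaled; mean ± SD; n = 3 IL13KO cocultures, 3 WT cocultures and 4 monocultures, here and below). The markers did not move together. In IL13KO cocultures against monocultures 4 of the 7 were called higher and 2 lower, and likewise in WT cocultures against monocultures. These are 85.7% of the markers in each comparison, against 57.4% and 62.5% of all genes. The lower ones were Dcn, at 1649 ± 238 CPM in the IL13KO cocultures, 369 ± 64.8 CPM in the WT cocultures and 2530 ± 681 CPM in the monocultures, and Lum, at 234 ± 14.7, 49.0 ± 0.931 and 634 ± 201 CPM in the same order of groups. Summed over all 7 markers, of which Col1a1 made up the largest part in the cocultures, the lowest and highest library held 15609 and 18925 CPM among the IL13KO cocultures, 8134 and 12385 CPM among the WT cocultures and 5820 and 7598 CPM among the monocultures. Fewer cells of a type and less RNA per cell cannot be told apart in bulk RNA.

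Of the 28 basement membrane genes abundant enough to test, 19 were higher in fibroblasts kept with IL13KO ILC2s than in monoculture, and 11 were once trends with GC content and transcript length had been removed. With or without that step, 8 genes were higher with IL13KO than with WT ILC2s, 4 of them collagen IV chains. A gene was called where the Benjamini-Hochberg adjusted p of edgeR's quasi-likelihood test, taken over all genes tested, was below 0.05. Between IL13KO cocultures and monocultures, 20 of the 28 tested members (71.4%) were called, against 57.4% of all genes: 19 members were higher (30.1% of all genes) and 1, Sparc, was lower (27.3% of all genes). The median log2 fold change was 1.62 over the members and 0.00 over all genes tested.

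Between WT cocultures and monocultures, 17 of 28 members (60.7%) were called, against 62.5% of all genes, which is near the background. In that comparison 12 members were higher (32.8% of all genes) and 5, Col4a4, Col4a5, Lama5, Smoc2 and Sparc, were lower (29.7% of all genes), with a median log2 fold change of 0.72 over the members and 0.02 over all genes. Between IL13KO and WT cocultures, 9 of 28 members (32.1%) were called, against 23.3% of all genes. Of these, 8 were higher in the IL13KO cocultures (11.7% of all genes), namely Col4a1, Col4a2, Col4a4, Col4a5, Col15a1, Lama5, Nid2 and Smoc2, and 1, Lama3, was lower (11.6% of all genes). The median log2 fold change was 0.66 over the members and 0.00 over all genes. Both comparisons with monoculture use the same 4 monocultures, so the fold changes in them are not independent of each other.

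GC content was considered for each gene because the fold changes against monoculture followed it across the transcriptome. Over the 16313 genes with a known sequence, Spearman's rho between GC content and log2 fold change was 0.404 for IL13KO cocultures against monocultures, 0.339 for WT cocultures against monocultures and 0.048 for IL13KO against WT cocultures, as a description across genes, which are not independent replicates. The tested members had a median GC content of 52.9%, against 49.6% over all genes tested, and a median transcript length of 6068.5 nt, against 2883 nt. Their GC content ran from 47.7% in Frem1 to 60.9% in Hspg2. Each member is therefore given with a second fold change, called trend-corrected below, from a fit in which the dependence of every library on GC content and on transcript length had been removed.

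**Figure D1:**
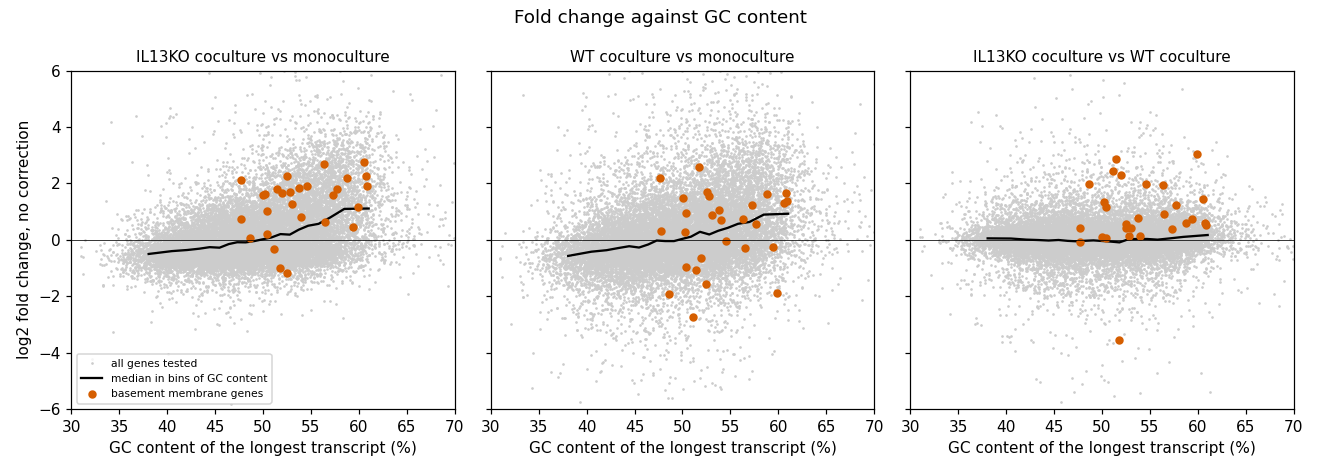
Log2 fold change (vertical axis) against transcript GC content in percent (horizontal axis) in the 3 comparisons, with all genes tested in grey, the median of genes in bins of GC content as a black line and the 28 tested basement membrane genes in orange. The black line rises with GC content in both comparisons with monoculture (rho 0.404 and 0.339) and lies close to flat between IL13KO and WT cocultures (rho 0.048).

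With these trends removed, 11 members were higher in IL13KO cocultures than in monocultures and 1 lower, against 23.6% and 26.7% of all genes and 50.3% called in either direction. Between WT cocultures and monocultures, 6 were higher and 9 lower, against 28.8% and 30.8% of all genes and 59.6% in either direction. The median over the members was then 0.61 for IL13KO cocultures against monocultures and 0.02 for WT cocultures against monocultures. Of the members called before and after, 12 had the same call between IL13KO cocultures and monocultures and 11 between WT cocultures and monocultures, and none had the opposite one. Between IL13KO and WT cocultures the same 9 members were called in the same direction, 8 higher and 1 lower, against 12.3% and 13.4% of all genes and 25.7% in either direction, and the median over the members was 0.53. Removing the trends lowered the fold change of 28 of 28 members in both comparisons with monoculture and of 27 of 28 between the cocultures.

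**Figure D2:**
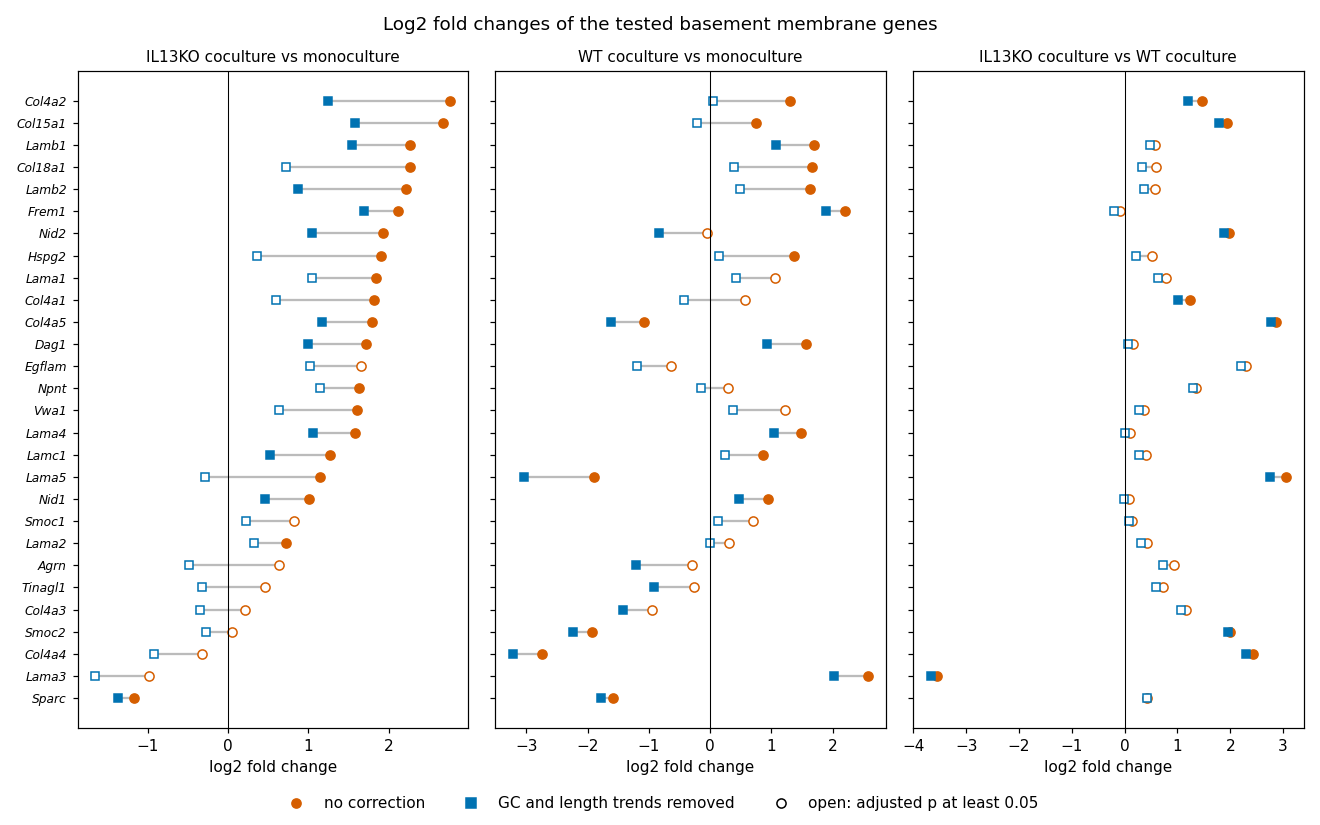
Log2 fold change (horizontal axis) of the 28 tested basement membrane genes (vertical axis) in 3 comparisons, as fitted (circles) and with the GC content and transcript length trends removed (squares); open symbols have an adjusted p of 0.05 or more. Squares lie left of circles for 28 of 28 genes in both comparisons with monoculture, while the 9 genes called between IL13KO and WT cocultures are called in both fits.

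Collagen IV, the network-forming collagen of basement membranes, is assembled from trimers of 6 chains, of which Col4a1 and Col4a2 form the trimer found in nearly all tissues. Both genes were higher with IL13KO ILC2s than with WT ILC2s. Col4a2 had 76.0, 86.7 and 85.4 CPM in the IL13KO cocultures, 35.2, 32.9 and 22.2 CPM in the WT cocultures and 13.3, 8.36, 18.2 and 9.20 CPM in the monocultures. No group overlapped another, and all 3 IL13KO libraries were above every other library. The log2 fold change of Col4a2 was 2.76 ± 0.24 (SE, here and below) for IL13KO cocultures against monocultures (edgeR adjusted p = 1.76e-06), 1.30 ± 0.23 for WT cocultures against monocultures (edgeR adjusted p = 3.36e-04) and 1.46 ± 0.24 for IL13KO against WT cocultures (edgeR adjusted p = 8.89e-04). The trend-corrected fold changes were 1.24, 0.05 and 1.20 in the same order of comparisons, so the rise with WT ILC2s over monoculture was lost (edgeR adjusted p = 0.85) and the other calls held.

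Its partner chain was also higher with IL13KO ILC2s, at a lower level. Col4a1 had 30.2, 39.6 and 42.4 CPM in the IL13KO cocultures, 13.5, 19.2 and 14.9 CPM in the WT cocultures and 11.5, 6.07, 18.7 and 6.67 CPM in the monocultures. The IL13KO libraries were above all others, while WT cocultures and monocultures overlapped. Col4a1 rose by 1.81 ± 0.31 against monocultures (edgeR adjusted p = 3.14e-04) and by 1.24 ± 0.33 against WT cocultures (edgeR adjusted p = 0.016), and differed by 0.58 ± 0.32 between WT cocultures and monocultures (edgeR adjusted p = 0.128). The trend-corrected value against monocultures was 0.59 (edgeR adjusted p = 0.0854), and that against WT cocultures was 1.01 (edgeR adjusted p = 0.0179). The Col4a1 call between the cocultures ended when any 1 of IL13KO cocultures 2 and 3 and WT cocultures 1 and 4 was left out, with edgeR adjusted p between 0.0577 and 0.0646, and without monoculture 3 the difference between WT cocultures and monocultures was called (0.98, edgeR adjusted p = 0.00352).

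Col4a1 and Col4a2, known to share a bidirectional promoter, lie head to head on chromosome 8 (GRCm38), Col4a1 on the minus strand at chr8:11198423-11312826 and Col4a2 on the plus strand at chr8:11312805-11449287. Their sequences are printed because this arrangement joins the pair of chains that were both higher with IL13KO ILC2s. Each RefSeq window (GRCm38.p6) covers 250 bases before to 50 bases after the annotated start, at chr8:11312777-11313076 (minus strand) for Col4a1 and chr8:11312555-11312854 (plus strand) for Col4a2, and the 78 bases they share, chr8:11312777-11312854, are in capitals on both strands.
Col4a1: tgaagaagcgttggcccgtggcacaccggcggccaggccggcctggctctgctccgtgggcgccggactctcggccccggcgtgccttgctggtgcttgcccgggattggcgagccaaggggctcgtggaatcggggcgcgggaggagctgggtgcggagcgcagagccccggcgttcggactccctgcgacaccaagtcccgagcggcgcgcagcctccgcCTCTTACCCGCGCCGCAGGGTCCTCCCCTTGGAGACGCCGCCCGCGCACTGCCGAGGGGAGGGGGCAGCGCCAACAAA
Col4a2: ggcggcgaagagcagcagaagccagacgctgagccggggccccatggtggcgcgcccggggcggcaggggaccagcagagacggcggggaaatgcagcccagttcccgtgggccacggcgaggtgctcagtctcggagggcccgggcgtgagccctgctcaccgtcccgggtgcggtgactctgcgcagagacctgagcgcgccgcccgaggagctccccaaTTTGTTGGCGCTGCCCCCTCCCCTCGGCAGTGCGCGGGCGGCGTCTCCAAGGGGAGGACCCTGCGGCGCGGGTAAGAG
The GC content of these windows was 74.0% and 73.7%, against a median of 52.7% over all 32851 windows. Both held the GC box letters GGGCGG and the letters CCAAT, counted on either strand. GGGCGG was in 35.7% and CCAAT in 37.4% of all windows. Exon bases shared between the genes made up 0.3% of Col4a1 and 1.0% of Col4a2, and the strand used in counting is not given in the sources used here.

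Col4a5, whose chain belongs to a more restricted collagen IV network and which lies head to head with Col4a6 on the X chromosome, had the widest gap between the cocultures among the 15 members with a group mean of at least 10 CPM that were called. Col4a5 had 12.9, 16.5 and 12.9 CPM in the IL13KO cocultures, 2.38, 1.79 and 1.56 CPM in the WT cocultures and 5.06, 1.78, 5.89 and 3.65 CPM in the monocultures. Every IL13KO library was above every other library, and monoculture 2 fell inside the range of the WT cocultures. Col4a5 rose with IL13KO ILC2s by 1.79 ± 0.30 against monocultures (edgeR adjusted p = 2.77e-04) and by 2.87 ± 0.35 against WT cocultures (edgeR adjusted p = 8.40e-05). It fell with WT ILC2s against monocultures (-1.08 ± 0.34, edgeR adjusted p = 0.0143), and without WT coculture 4 that call was lost (-0.94, edgeR adjusted p = 0.0584). The trend-corrected values, 1.17, 2.78 and -1.61 in this order, all stayed called. Its partner Col4a6 had 2, 11 and 0 reads in the IL13KO cocultures, 1, 0 and 0 in the WT cocultures and 0 in each monoculture, below what could be tested.

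Col4a3 and Col4a4, the chains that join Col4a5 in the network of the kidney glomerulus, were close to the limit of detection. Col4a4 had 13, 21 and 6 reads in the IL13KO cocultures, 1, 2 and 5 reads in the WT cocultures and 12, 9, 20 and 5 reads in the monocultures. On this small count it was higher with IL13KO than with WT ILC2s (2.43 ± 0.78, edgeR adjusted p = 0.0383) and lower with WT ILC2s than in monoculture (-2.75 ± 0.75, edgeR adjusted p = 0.00626). Its call between the cocultures ended when any 1 of IL13KO cocultures 1 and 2 and WT cocultures 1 and 3 was left out (0.0915 to 0.176, edgeR adjusted p), and without WT coculture 4 these values moved to 3.25 and -3.57. Col4a3 averaged 1.06 ± 0.117 CPM in the IL13KO cocultures, 0.469 ± 0.155 CPM in the WT cocultures and 0.911 ± 0.541 CPM in the monocultures, with no call in any comparison. Its trend-corrected value for WT cocultures against monocultures was -1.42 (edgeR adjusted p = 0.0336), and its uncorrected value was called without monoculture 2 (-1.29, edgeR adjusted p = 0.0168).

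**Figure D3:**
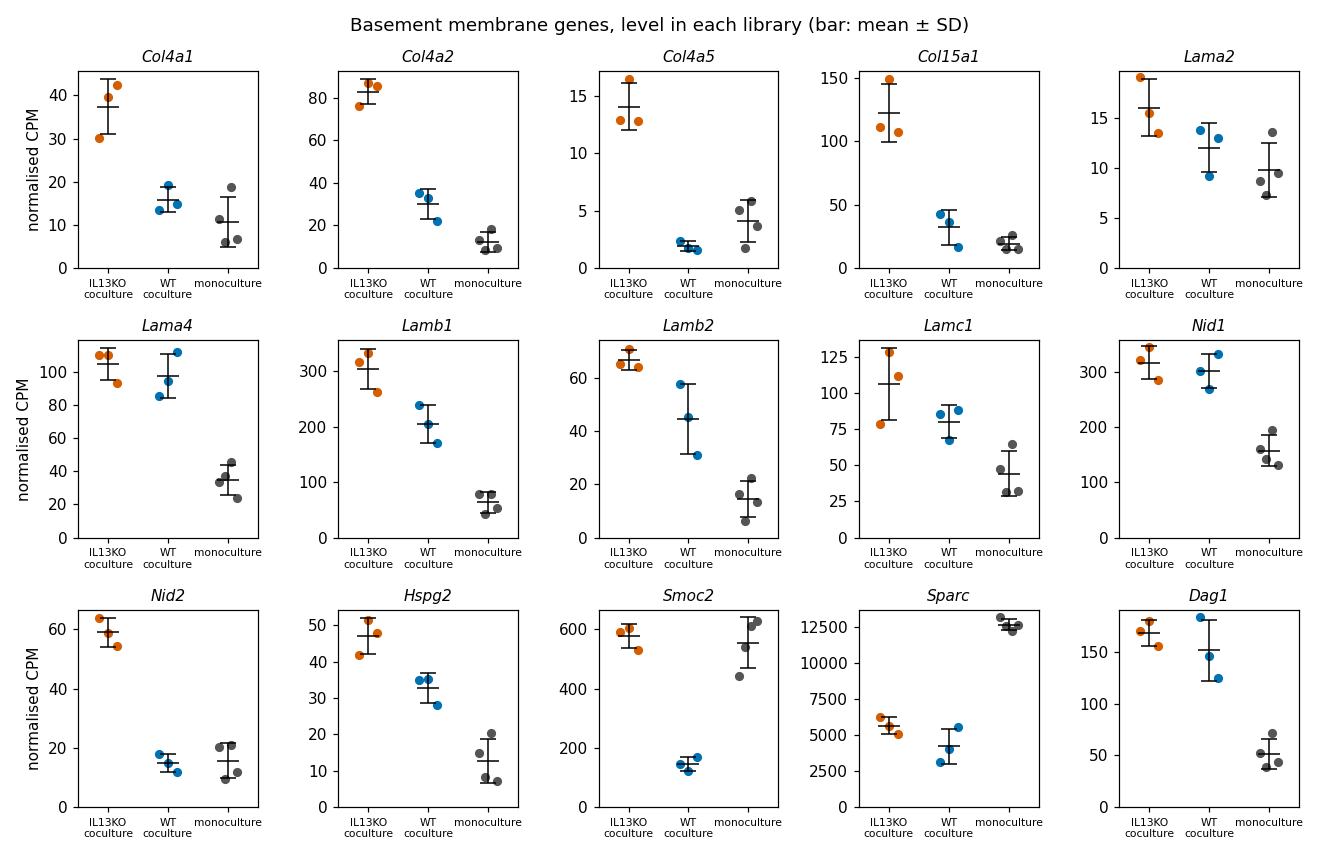
Level in CPM (vertical axes) of the 15 basement membrane genes that were called in at least 1 comparison and averaged at least 10 CPM in a group, in IL13KO cocultures, WT cocultures and monocultures; points are libraries and bars are the mean and SD. Col4a1, Col4a2, Col4a5, Col15a1 and Nid2 are highest in all 3 IL13KO cocultures, Smoc2 is lowest in the 3 WT cocultures, and Sparc is highest in the 4 monocultures.

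Collagens XV and XVIII are the multiplexin collagens, which carry glycosaminoglycan chains and sit at the border between basement membrane and interstitial matrix. Col15a1 had 111, 149 and 107 CPM in the IL13KO cocultures, 43.0, 36.4 and 16.9 CPM in the WT cocultures and 21, 14.9, 26.1 and 15 CPM in the monocultures. The IL13KO libraries stood above all others, and the WT cocultures overlapped the monocultures. The difference between IL13KO and WT cocultures was 1.93 ± 0.30 (edgeR adjusted p = 5.22e-04) and 1.79 after trend correction. The WT coculture difference from monoculture, 0.75 ± 0.28 (edgeR adjusted p = 0.0329), was lost when any 1 of WT cocultures 1 and 3 and monocultures 2 and 4 was left out (0.0853 to 0.188, edgeR adjusted p), and trend correction ended it and turned its direction (-0.21, edgeR adjusted p = 0.486). Col18a1, the source of the endostatin fragment, averaged 6.31 ± 2.44 CPM in the IL13KO cocultures, 4.19 ± 1.31 CPM in the WT cocultures and 1.34 ± 0.647 CPM in the monocultures. It was called higher than monoculture in both cocultures (2.26 ± 0.38 with IL13KO and 1.67 ± 0.39 with WT ILC2s), at a GC content of 60.8%, and both calls were lost after trend correction (0.72 and 0.39). With only the GC trend removed, the call with IL13KO ILC2s held (1.13, edgeR adjusted p = 0.0149) and that with WT ILC2s was lost (0.72, edgeR adjusted p = 0.0984).

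Other pairs also lie head to head, Col4a5 with Col4a6 on chromosome X and Col4a3 with Col4a4 on chromosome 1. The windows of Col4a5, Col15a1 and Lama5, which differed between the cocultures, are printed from RefSeq on GRCm38.p6, with matches to the GC box or CCAAT letters above or to the STAT-like pairing of TTC and GAA 3 or 4 bases apart in capitals, on either strand. Col4a5 is at chrX:141475169-141475468 (plus strand), Col15a1 at chr4:47207762-47208061 (plus strand) and Lama5 at chr2:180225810-180226109 (minus strand).
Col4a5: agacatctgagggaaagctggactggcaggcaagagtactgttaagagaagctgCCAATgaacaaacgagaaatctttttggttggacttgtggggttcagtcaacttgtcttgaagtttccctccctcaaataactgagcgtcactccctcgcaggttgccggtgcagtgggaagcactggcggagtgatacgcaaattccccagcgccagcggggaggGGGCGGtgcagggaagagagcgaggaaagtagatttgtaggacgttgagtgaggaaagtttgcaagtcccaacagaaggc
Col15a1: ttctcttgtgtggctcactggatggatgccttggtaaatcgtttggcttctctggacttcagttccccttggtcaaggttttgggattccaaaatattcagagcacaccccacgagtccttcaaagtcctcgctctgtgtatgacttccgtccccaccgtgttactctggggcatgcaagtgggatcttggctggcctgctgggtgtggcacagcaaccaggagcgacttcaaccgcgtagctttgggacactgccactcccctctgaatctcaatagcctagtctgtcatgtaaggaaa
Lama5: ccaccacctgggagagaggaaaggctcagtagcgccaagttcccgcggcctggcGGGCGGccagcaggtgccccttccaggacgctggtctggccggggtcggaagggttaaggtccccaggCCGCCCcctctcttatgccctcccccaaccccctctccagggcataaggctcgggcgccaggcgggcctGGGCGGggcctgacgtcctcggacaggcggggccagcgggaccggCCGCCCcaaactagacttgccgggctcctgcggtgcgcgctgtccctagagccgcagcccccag
Col4a5 held 1 GGGCGG and 1 CCAAT match, Lama5 held 4 GGGCGG matches, and Col15a1 held none of these letters. Windows were available for 23 of the 34 members, 31 windows in all. The TTC and GAA pair 4 bases apart, the arrangement typical of STAT6, was in 6.95% of all windows and, among the member windows used, in Dag1 alone. The pair 3 bases apart was in 8.30% of all windows and, among the member windows used, in Lamb2 alone. GGGCGG was in 61.3% of the members' windows, CCAAT in 41.9%, the SMAD letters CAGACA in 12.9% (21% of all windows) and the AP-1 letters TGANTCA in 9.68% (7.81% of all windows). A match describes letters in this window only.

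Laminins are cross-shaped trimers of an alpha, a beta and a gamma chain, and Lama4, Lamb1 and Lamc1 were the most highly expressed chains of each kind per transcript length. In the IL13KO cocultures their levels were 17.3 ± 1.63, 52.6 ± 6.34 and 14 ± 3.30 CPM per kb of transcript. All 3 were higher in both cocultures than in monoculture, without a called difference between the cocultures. Lamb1 had 317, 333 and 263 CPM in the IL13KO cocultures, 239, 205 and 171 CPM in the WT cocultures and 79.3, 42.0, 78.7 and 54.0 CPM in the monocultures. The 3 groups did not overlap. The log2 difference from monoculture was 2.26 ± 0.20 with IL13KO ILC2s (edgeR adjusted p = 2.30e-06) and 1.69 ± 0.20 with WT ILC2s (edgeR adjusted p = 1.02e-05), and 1.54 and 1.07 after trend correction, all called. Between IL13KO and WT cocultures it was 0.57 ± 0.21 (edgeR adjusted p = 0.0669), and it was called when monoculture 1, 2 or 3 was left out (edgeR adjusted p = 0.0273 to 0.0474).

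Lama4, the alpha chain of laminins in mesenchyme and vessel walls, had 110.5, 110.3 and 93.3 CPM in the IL13KO cocultures, 85.7, 94.8 and 112 CPM in the WT cocultures and 33.7, 37.2, 45.5 and 23.7 CPM in the monocultures. All 6 cocultures were above all 4 monocultures, and the cocultures overlapped each other. The differences from monoculture were 1.58 ± 0.18 with IL13KO ILC2s (edgeR adjusted p = 1.21e-05) and 1.48 ± 0.18 with WT ILC2s (edgeR adjusted p = 1.17e-05), and 1.06 and 1.04 after trend correction. Lamc1, the gamma chain of most laminins, had 79.0, 128 and 112 CPM in the IL13KO cocultures, 85.5, 67.4 and 88.3 CPM in the WT cocultures and 47.7, 31.7, 64.9 and 32.4 CPM in the monocultures. All cocultures were above all monocultures, by a smaller margin than for Lamb1. The Lamc1 differences were 1.27 ± 0.23 and 0.87 ± 0.23 with IL13KO and WT ILC2s, and after trend correction 0.52 (edgeR adjusted p = 0.0396) and 0.24 (edgeR adjusted p = 0.306).

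Lamb2, the beta chain that replaces Lamb1 in laminins of muscle and glomerulus, had 65.2, 70.9 and 64.1 CPM in the IL13KO cocultures, 57.6, 45.1 and 31.1 CPM in the WT cocultures and 16.2, 6.22, 22.5 and 13.2 CPM in the monocultures. The groups did not overlap, but the WT cocultures spread widely. Lamb2 was higher than monoculture by 2.21 ± 0.31 with IL13KO ILC2s and 1.63 ± 0.31 with WT ILC2s, at a GC content of 58.8%. These values fell to 0.87 (edgeR adjusted p = 0.0122) and 0.50 (edgeR adjusted p = 0.115) after trend correction. With only the GC trend removed they were 1.28 (edgeR adjusted p = 0.00118) and 0.82 (edgeR adjusted p = 0.0169), both called. Lama2, the alpha chain of muscle laminin, had 19.1, 15.5 and 13.5 CPM in the IL13KO cocultures, 13.8, 9.21 and 13.0 CPM in the WT cocultures and 8.69, 7.25, 13.5 and 9.48 CPM in the monocultures. Neighbouring groups overlapped. Its rise with IL13KO ILC2s over monoculture (0.72 ± 0.22, edgeR adjusted p = 0.0139) was lost without IL13KO coculture 1 (0.58, edgeR adjusted p = 0.0736) and after trend correction (0.32), and WT cocultures were called above monocultures only without monoculture 3 (0.50, edgeR adjusted p = 0.046).

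The alpha chains of epithelial laminins were scarce and differed most between the cocultures. Lama5 had 36, 53 and 38 reads in the IL13KO cocultures, 5, 5 and 7 reads in the WT cocultures and 4, 11, 21 and 18 reads in the monocultures, or means of 2.40 ± 0.53, 0.286 ± 0.0806 and 1.09 ± 0.68 CPM. The IL13KO cocultures were above all others, and monoculture 1 lay within the WT cocultures. IL13KO exceeded WT cocultures by 3.05 ± 0.53 (edgeR adjusted p = 0.00123, 2.74 after trend correction), and WT cocultures were below monocultures by a log2 change of -1.90 ± 0.54 (edgeR adjusted p = 0.00794, -3.03 after trend correction). The rise with IL13KO ILC2s over monocultures, 1.15 ± 0.44 (edgeR adjusted p = 0.0382), ended without any of 6 libraries (edgeR adjusted p = 0.0549 to 0.151) and turned to -0.29 after trend correction (edgeR adjusted p = 0.567). Lama3 went the other way between the cocultures, with 1, 1 and 3 reads in the IL13KO cocultures, 24, 25 and 23 reads in the WT cocultures and 0, 7, 0 and 3 reads in the monocultures. The 3 WT cocultures were above every other library. Its log2 fold change was -3.56 ± 0.80 for IL13KO against WT cocultures (edgeR adjusted p = 0.00647) and 2.58 ± 0.69 for WT cocultures against monocultures (edgeR adjusted p = 0.00555), which became -4.23 without IL13KO coculture 3 and 3.78 without monoculture 2.

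Lama1, the alpha chain of embryonic laminin, averaged 8.69 ± 1.98 CPM in the IL13KO cocultures, 5.05 ± 0.894 CPM in the WT cocultures and 2.51 ± 2.31 CPM in the monocultures. It rose with IL13KO ILC2s over monocultures (1.84 ± 0.48, edgeR adjusted p = 0.00577; 1.05 after trend correction, edgeR adjusted p = 0.0504). Monoculture 3 alone carried 63 of its monoculture reads, against 9 to 28 in the others. Without monoculture 3 that difference was 2.64, and the difference between WT cocultures and monocultures, 1.05 ± 0.49 with all libraries, was 1.86 and was called (edgeR adjusted p = 7.65e-04). Lamb3, a chain of epithelial laminin, had 6, 5 and 26 reads in the IL13KO cocultures, 4, 6 and 2 in the WT cocultures and 0, 11, 0 and 0 in the monocultures. Lamc3 had 0, 3 and 4 reads in the IL13KO cocultures, 2, 1 and 1 in the WT cocultures and none in the monocultures.

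**Figure D4:**
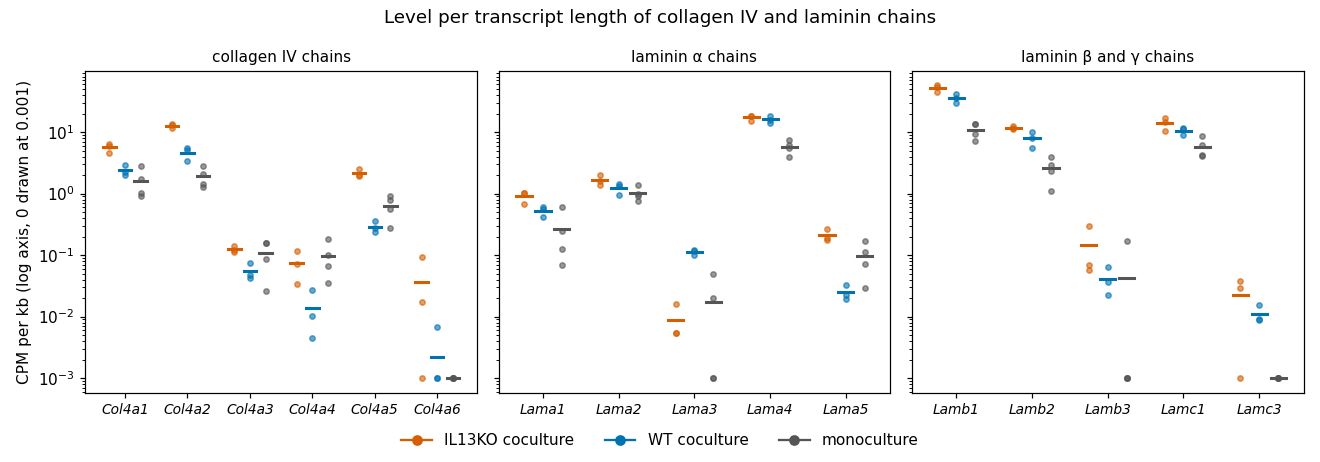
Level in CPM per kb of transcript (vertical axis, logarithmic, with 0 drawn at 0.001) of the collagen IV and laminin chains in IL13KO cocultures, WT cocultures and monocultures, one point per library. Lamb1, Lama4, Lamc1, Lamb2 and Col4a2 stand at the top in the IL13KO cocultures, and Lama3 lies higher in the 3 WT cocultures than in the other libraries.

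The nidogens, short rods that link laminin to collagen IV, behaved unlike each other. Nid1 had 321, 345 and 286 CPM in the IL13KO cocultures, 302, 269.9 and 332 CPM in the WT cocultures and 160.2, 143, 195 and 131 CPM in the monocultures. Both cocultures were above monoculture and overlapped each other. The differences from monoculture were 1.01 ± 0.13 with IL13KO ILC2s (edgeR adjusted p = 3.71e-05) and 0.94 ± 0.13 with WT ILC2s (edgeR adjusted p = 4.40e-05), 0.46 and 0.47 after trend correction and still called, and that between the cocultures was 0.07 ± 0.14. Nid2 had 63.9, 58.8 and 54.2 CPM in the IL13KO cocultures, 18.0, 15.0 and 11.8 CPM in the WT cocultures and 20.3, 9.32, 21.1 and 11.8 CPM in the monocultures. Here the IL13KO cocultures were above every other library and WT cocultures lay within the monocultures. Nid2 rose with IL13KO ILC2s by 1.92 ± 0.25 over monocultures (edgeR adjusted p = 3.38e-05) and 1.98 ± 0.27 over WT cocultures (edgeR adjusted p = 1.99e-04), and by 1.04 and 1.88 after trend correction. Its exons share 8.4% of their bases with Rtraf on the other strand.

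Perlecan, the large heparan sulfate proteoglycan encoded by Hspg2, had the highest GC content of the members, 60.9%. Hspg2 had 41.9, 51.6 and 47.9 CPM in the IL13KO cocultures, 34.9, 35.2 and 27.9 CPM in the WT cocultures and 14.9, 8.29, 20.4 and 7.24 CPM in the monocultures. The 3 groups did not overlap, and it was called above monoculture in both cocultures (1.90 ± 0.28 with IL13KO and 1.38 ± 0.28 with WT ILC2s). Both calls were lost after trend correction (0.36, edgeR adjusted p = 0.169, and 0.15, edgeR adjusted p = 0.571). With only the GC trend removed, the call with IL13KO ILC2s held (0.78, edgeR adjusted p = 0.0161) and that with WT ILC2s was lost (0.43, edgeR adjusted p = 0.147). Agrn, the gene of the proteoglycan agrin that binds dystroglycan, averaged 3.99 ± 1.35 CPM in the IL13KO cocultures, 2.09 ± 0.237 CPM in the WT cocultures and 2.58 ± 0.788 CPM in the monocultures. It was not called in any comparison, and the difference between IL13KO and WT cocultures, 0.93 ± 0.32, had an edgeR adjusted p of 0.0503. It was called without IL13KO coculture 3 or without monoculture 1, 2 or 3 (edgeR adjusted p = 0.0248 to 0.0434), and the trend-corrected value for WT cocultures against monocultures was -1.20 (edgeR adjusted p = 0.00246).

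Sparc and the related Smoc1 and Smoc2 encode secreted calcium-binding proteins, and Sparc binds collagens and is needed for normal collagen IV deposition. Sparc was the most abundant member and the only one lower in both cocultures than in monoculture. It had 6226, 5638 and 5027 CPM in the IL13KO cocultures, 3147, 3989 and 5539 CPM in the WT cocultures and 13153, 12527, 12215 and 12629.7 CPM in the monocultures. All 4 monocultures were above all cocultures, and the cocultures overlapped each other. The log2 fold change against monoculture was -1.17 ± 0.15 with IL13KO ILC2s (edgeR adjusted p = 4.45e-05) and -1.58 ± 0.16 with WT ILC2s (edgeR adjusted p = 2.61e-06), and -1.36 and -1.78 after trend correction. Between IL13KO and WT cocultures it was 0.41 ± 0.16 (edgeR adjusted p = 0.0808), and 0.65 and called without WT coculture 4 (edgeR adjusted p = 0.00344).

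Smoc2 had 593, 606 and 530.0 CPM in the IL13KO cocultures, 147, 120.2 and 169 CPM in the WT cocultures and 441, 540.3, 613 and 627 CPM in the monocultures. The WT cocultures lay below all other libraries, and IL13KO cocultures overlapped monocultures. Smoc2 fell with WT ILC2s by a log2 change of -1.93 ± 0.14 against monocultures (edgeR adjusted p = 2.51e-07) and was higher with IL13KO than with WT ILC2s by 1.99 ± 0.15 (edgeR adjusted p = 2.06e-06), -2.23 and 1.96 after trend correction. Between IL13KO cocultures and monocultures the difference was 0.05 ± 0.14 (edgeR adjusted p = 0.755). Smoc1 averaged 1.79 ± 0.877 CPM in the IL13KO cocultures, 1.64 ± 0.382 CPM in the WT cocultures and 1.01 ± 0.696 CPM in the monocultures and was not called.

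Dag1, which encodes both subunits of the laminin and perlecan receptor dystroglycan, had 170.2, 179 and 155 CPM in the IL13KO cocultures, 183, 146 and 125 CPM in the WT cocultures and 51.7, 38.5, 71.3 and 44.0 CPM in the monocultures. All cocultures were above all monocultures. Dag1 rose by 1.72 ± 0.18 with IL13KO ILC2s (edgeR adjusted p = 9.42e-06) and by 1.56 ± 0.18 with WT ILC2s (edgeR adjusted p = 1.09e-05), and by 0.99 and 0.93 after trend correction. Frem1, of the Fras and Frem proteins that fasten epithelial basement membranes to the dermis, averaged 5.71 ± 0.923 CPM in the IL13KO cocultures, 6.07 ± 1.43 CPM in the WT cocultures and 1.30 ± 0.613 CPM in the monocultures. It was higher in both cocultures (2.11 ± 0.32 with IL13KO and 2.20 ± 0.32 with WT ILC2s), at the lowest GC content of the members, and remained called after trend correction (1.69 and 1.88). Its relatives were scarce: Fras1 had 8, 17 and 6 reads in the IL13KO cocultures, 9, 3 and 5 in the WT cocultures and 17, 3, 0 and 0 in the monocultures, and Frem2 had 2, 1 and 2 reads in the IL13KO cocultures, 3, 0 and 5 in the WT cocultures and none in the monocultures.

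Among the remaining members, Npnt, an integrin ligand, averaged 3.04 ± 0.479 CPM in the IL13KO cocultures, 1.19 ± 0.555 CPM in the WT cocultures and 0.963 ± 0.777 CPM in the monocultures. It rose with IL13KO ILC2s over monocultures (1.63 ± 0.50, edgeR adjusted p = 0.0131), by 2.35 without monoculture 4, and lost its call after trend correction (1.15, edgeR adjusted p = 0.0644). Vwa1, a perlecan-binding protein, averaged 4.89 ± 0.571 CPM in the IL13KO cocultures, 3.76 ± 1.70 CPM in the WT cocultures and 1.63 ± 1.27 CPM in the monocultures, and its rise with IL13KO ILC2s (1.6 ± 0.51, edgeR adjusted p = 0.0171) was lost without IL13KO coculture 1 (edgeR adjusted p = 0.0544) and after trend correction. Of its exon bases, 25.2% overlap transcripts on the other strand, so its reads are uncertain. Tinagl1, a matrix protein related to tubulointerstitial nephritis antigen, had 53.4, 35.7 and 37.9 CPM in the IL13KO cocultures, 22.9, 23.8 and 30.2 CPM in the WT cocultures and 16.6, 30.4, 43.0 and 32.9 CPM in the monocultures, and was not called. After trend correction it was lower in WT cocultures than in monocultures (-0.91, edgeR adjusted p = 0.00169). Egflam, the gene of the dystroglycan ligand pikachurin, averaged 1.44 ± 0.366, 0.293 ± 0.235 and 0.474 ± 0.472 CPM in IL13KO cocultures, WT cocultures and monocultures, with no call. Several of these calls changed when a single library was left out. Vwa1 was called higher in WT cocultures than in monocultures without WT coculture 4 (edgeR adjusted p = 0.0252) or monoculture 3 (0.0112). Between IL13KO and WT cocultures, Npnt was called higher without monoculture 1, 2 or 4 (edgeR adjusted p = 0.0301 to 0.0495), Egflam without monoculture 1, 2 or 3 (0.0261 to 0.0478) and Tinagl1 without monoculture 1 or 3 (0.00937 and 0.0364). The monocultures are not among the groups compared there and enter only through the shared fit, and these fold changes hardly moved. Against monocultures, IL13KO cocultures were called higher for Egflam without monoculture 1 (0.0316) or 3 (0.0470) and, without monoculture 3, for Tinagl1 (0.0285) and Agrn (0.0262, and 0.0290 without IL13KO coculture 3). Tinagl1 was called lower in WT cocultures than in monocultures without monoculture 1 (0.0381).

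Many members shared an order of libraries among the monocultures, but not among the WT cocultures. Monoculture 3 held the highest monoculture level of 20 of the 28 tested members and monoculture 2 the lowest of 17. WT cocultures 1, 3 and 4 were the highest of their group for 11, 6 and 11 members and the lowest for 8, 7 and 13. IL13KO cocultures 1, 2 and 3 were the highest for 9, 15 and 4 members and the lowest for 7, 4 and 17. These ranks were not counted over all genes. The median deviation of the members from their mean over all 10 libraries was 0.82, 0.93 and 0.69 on the log2 scale in IL13KO cocultures 1 to 3, 0.26, 0.15 and -0.12 in WT cocultures 1, 3 and 4, and -0.76, -1.28, -0.02 and -0.88 in monocultures 1 to 4. Over all genes, the correlation of a library's deviation with GC content lay between 0.346 and 0.370 for IL13KO cocultures, between 0.197 and 0.290 for WT cocultures and between -0.407 and -0.146 for monocultures, with monoculture 3 nearest to 0. The trend with GC content thus differed between monocultures and cocultures, and its part in the differences from monoculture was not tested beyond the fits with trends removed.

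Other genes that act with basement membranes were counted from 5 lists. Of 14 tested genes for folding and secreting collagen, 13 were higher and none lower with IL13KO ILC2s than in monoculture, and 12 were higher and none lower with WT ILC2s. These are 92.9% and 85.7% of the list, against 57.4% and 62.5% of all genes. Between IL13KO and WT cocultures none was higher and 5 were lower (35.7%, against 23.3% of all genes), and with the trends removed the counts were 8 and 1, 10 and 0, and 0 and 6. P3h1, a prolyl hydroxylase of collagen, averaged 250.3 ± 13.5 CPM in the IL13KO cocultures, 437 ± 21.4 CPM in the WT cocultures and 50.4 ± 11.1 CPM in the monocultures (-0.80 ± 0.15 for IL13KO against WT, edgeR adjusted p = 0.00219). Plod2, a lysyl hydroxylase, and P4ha1, a subunit of prolyl hydroxylase, had -0.64 ± 0.10 and -0.82 ± 0.11 in the same comparison. The list's median log2 fold change was 0.70 for IL13KO cocultures against monocultures, 1.02 for WT cocultures against monocultures and -0.18 for IL13KO against WT cocultures, beside 0.00, 0.02 and 0.00 over all genes.

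Of 17 tested receptors for basement membranes, 7 rose and 3 fell with IL13KO ILC2s against monoculture, 4 rose and 4 fell with WT ILC2s, and 7 were higher and 1 lower with IL13KO than with WT ILC2s. The shares called were 58.8%, 47.1% and 47.1%, against 57.4%, 62.5% and 23.3% of all genes, so the first is near the background and the second below it. Their medians were 0.32, -0.14 and 0.47. Ddr1, a collagen receptor kinase, averaged 65.9 ± 7.41 CPM in the IL13KO cocultures, 30 ± 14.2 CPM in the WT cocultures and 9.37 ± 3.58 CPM in the monocultures (1.13 ± 0.31 for IL13KO against WT, edgeR adjusted p = 0.0197). Cd151, a tetraspanin that binds laminin-binding integrins, averaged 739.7 ± 20.8 CPM in the IL13KO cocultures, 996 ± 62.1 CPM in the WT cocultures and 451 ± 29.5 CPM in the monocultures. Sgce, a sarcoglycan, averaged 175 ± 20.9, 127 ± 7.18 and 262 ± 29.9 CPM in IL13KO cocultures, WT cocultures and monocultures. With the trends removed the receptor counts were 4 higher and 5 lower, 4 and 7, and 5 and 2.

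Of 12 tested partners of basement membranes outside the 34 genes, 7 rose and 1 fell with IL13KO ILC2s against monoculture, 5 rose and 3 fell with WT ILC2s, and 4 were higher and 1 lower with IL13KO than with WT ILC2s (medians 0.60, 0.46 and 0.60; trend-corrected counts 2 and 3, 4 and 5, 4 and 1). The shares called were 66.7%, 66.7% and 41.7%, against 57.4%, 62.5% and 23.3% of all genes. Fbln2, a fibulin that binds nidogen and perlecan, averaged 2351 ± 342 CPM in the IL13KO cocultures, 1008 ± 123 CPM in the WT cocultures and 442 ± 149 CPM in the monocultures (1.22 ± 0.22 for IL13KO against WT, edgeR adjusted p = 0.00141). Ltbp2, a fibrillin-binding protein, averaged 199.5 ± 23.2, 53.3 ± 7.35 and 61.2 ± 21.5 CPM in IL13KO cocultures, WT cocultures and monocultures. Matn2, a matrilin, moved the other way, with 54.2 ± 5.26 CPM in the IL13KO cocultures, 109.8 ± 4.41 CPM in the WT cocultures and 39.8 ± 2.32 CPM in the monocultures (-1.02 ± 0.10 for IL13KO against WT, edgeR adjusted p = 2.12e-05).

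Of the 10 genes that glycosylate dystroglycan, 5 rose and 2 fell against monoculture in each coculture and none was called between the cocultures, and with the trends removed the counts were 5 and 2, 4 and 2, and none (medians 1.08, 1.07 and 0.17). The share called was 70% in both comparisons with monoculture, against 57.4% and 62.5% of all genes. Pomgnt1 averaged 39.8 ± 1.99, 42.1 ± 4.32 and 18.9 ± 3.78 CPM and Pomt2 20.6 ± 0.846, 20.7 ± 3.69 and 9.70 ± 1.12 CPM in IL13KO cocultures, WT cocultures and monocultures. Of 15 tested genes that cleave or protect basement membranes, 9 rose and 1 fell with IL13KO ILC2s against monoculture, 10 rose and 4 fell with WT ILC2s, and 3 were higher and 2 lower with IL13KO than with WT ILC2s (medians 0.88, 1.49 and -0.04; trend-corrected counts 8 and 2, 10 and 5, 4 and 2). The shares called were 66.7%, 93.3% and 33.3%, against 57.4%, 62.5% and 23.3% of all genes. Mmp3, the stromelysin that cleaves laminin, nidogen and collagen IV, averaged 1300.1 ± 200.4 CPM in the IL13KO cocultures, 116 ± 23.0 CPM in the WT cocultures and 2092 ± 408 CPM in the monocultures (3.49 ± 0.20 for IL13KO against WT, edgeR adjusted p = 2.91e-07). Timp1, an inhibitor of metalloproteinases, averaged 1040.2 ± 38.9, 1733 ± 303 and 564 ± 37.5 CPM, and Bmp1, a procollagen proteinase, 445 ± 52.3, 456 ± 11.3 and 51.9 ± 14.6 CPM in the same order of groups.

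Markers of other cell types that produce basement membrane were read beside these results. Of 6 tested mural and stellate cell markers, 5 were higher in IL13KO than in WT cocultures (83.3%, against 23.3% of all genes). Against monocultures, 4 were lower in WT cocultures (66.7%, against 62.5% of all genes) and 2 higher in IL13KO cocultures (33.3%, against 57.4%). The share for WT cocultures is near the background. Col4a5 and Smoc2 also differed between the cocultures and between WT cocultures and monocultures, and Col4a5 between IL13KO cocultures and monocultures. Summed over all 7 such markers, libraries held 102.5 to 138 CPM with IL13KO ILC2s, 33.9 to 34.6 CPM with WT ILC2s and 87.5 to 98.6 CPM in monoculture, and Rgs5 alone averaged 57.6 ± 10.6 CPM in the IL13KO cocultures, 8.53 ± 1.62 CPM in the WT cocultures and 51.3 ± 12.3 CPM in the monocultures. None of these 7 markers was at 0 in every library of a group, and the part of these and the following markers in the differences between groups was not tested. Endothelial markers, 4 of 8 in the table, summed to 2.33 to 3.63 CPM with IL13KO ILC2s, 1.93 to 2.35 CPM with WT ILC2s and 0.0844 to 3.68 CPM in monoculture, with Pecam1 at most 0.247 CPM in a group mean. Epithelial markers, 5 of 7 in the table, summed to 0.85 to 2.16 CPM with IL13KO ILC2s, 1.35 to 3.33 CPM with WT ILC2s and 0 to 2.12 CPM in monoculture. Mesothelial markers summed to 107 to 227 CPM with IL13KO ILC2s, 129.7 to 151 CPM with WT ILC2s and 25 to 149.6 CPM in monoculture. By group means, most of this was Wt1 in the cocultures. In monoculture Wt1 averaged 30.7 ± 9.37 CPM, Upk1b 17.3 ± 28.2 CPM and Upk3b 12.4 ± 22.3 CPM, so the last 2 varied widely between libraries. Of 4 tested mesothelial markers, 2 (Wt1 and Lrrn4) were called higher in IL13KO cocultures and 1 (Wt1) in WT cocultures than in monocultures. These are 50% and 25%, against 57.4% and 62.5% of all genes. None of the 4 was called between the cocultures. There their median log2 fold change was 2.77, with Upk3b at 34.6 ± 35.9 CPM with IL13KO and 1.94 ± 3.2 CPM with WT ILC2s. Schwann cell markers, 3 of 5 in the table, summed to at most 2.30 CPM in a library. Leukocyte markers, 6 of 7 in the table, summed to 14.1 to 21.9 CPM with IL13KO ILC2s, 94.8 to 119 CPM with WT ILC2s and 2.89 to 6.60 CPM in monoculture, most of it Cd53. ILC2 markers summed to 59.0 to 61.9 CPM with IL13KO ILC2s, 56.7 to 73.2 CPM with WT ILC2s and 60.5 to 73.3 CPM in monoculture, most of it Rora. Of 4 tested, 2 (Il5 and Il13) were called lower and 1 (Rora) higher in IL13KO than in WT cocultures (75%, against 23.3% of all genes). Against monocultures, 3 (Gata3, Il5 and Il13) were called higher and 1 (Rora) lower in WT cocultures, and 2 were called higher and 0 lower in IL13KO cocultures. These are 100% and 50%, against 62.5% and 57.4% of all genes. Rora averaged 55.2 ± 3.08 CPM in the IL13KO cocultures, 41.7 ± 5.44 CPM in the WT cocultures and 63.6 ± 5.16 CPM in the monocultures. Il5 averaged 2 ± 1.5 CPM in the IL13KO cocultures, 12.4 ± 8.26 CPM in the WT cocultures and 0 in the monocultures, and Gata3 2.68 ± 0.946, 5.00 ± 0.693 and 1.35 ± 0.613 CPM in the same order of groups.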

How the data were processed

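Per the labels' protocols, the RNA of sorted cells went into low-input libraries, read from both ends over 50 nt. Per the submitters' processing notes, the tools included Salmon 1.6.0, STAR 2.7.7a and Trimmomatic 0.39, and the build was GRCm38.p6. The authors deposited raw counts per Ensembl gene, which are used here, and a normalized table, which is not. Genes were kept by edgeR's filterByExpr, scaled by TMM and tested with edgeR 4.0.16 (R 4.3.3) by glmQLFit and glmQLFTest over all 10 libraries with one coefficient per group, with Benjamini-Hochberg adjustment over all genes tested. CPM values are TMM-scaled, and levels per kb use the longest annotated transcript.

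For the trend-corrected fold changes, each library's log2 deviation was fitted by robust loess (span 0.4) against GC content and then transcript length of the GENCODE M21 annotation, and the fits entered as offsets. The edgeR test without this step was run on simulated counts, and the step itself was not tested on simulated data. The members and gene lists were chosen with earlier results of these data known. Members called in at least 1 comparison and averaging at least 10 CPM in a group are given per library, the others by group means or reads (Tinagl1 also per library, a choice made after its values were seen), and from each other list the 3 genes with the smallest adjusted p, 1 of which is not reported here. Alternatives covered scaling, DESeq2 1.42.0, limma-voom (limma 3.58.1), filters, a fold threshold of 1.5, thinned depth, single trends, a replicate block and each library left out. The columns of the WT cocultures carry the numbers 1, 3 and 4.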

Additional observations from a re-analysis of the deposited data

How the results depend on the processing

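The count of members higher in IL13KO cocultures than in monocultures, 19, was 11 with the GC and length trends removed, 10 with least-squares loess for those trends (chosen after seeing the data) and 11 with the trends removed and the replicate block together. The 12 members higher in WT cocultures than in monocultures became 6, 6 and 6 under these settings and the 5 lower members 9, 9 and 9. With only the GC trend removed, and not that with length, 17 members were higher in IL13KO cocultures than in monocultures. In that fit 8 members were higher and 7 lower in WT cocultures than in monocultures. With least-squares loess the 1 member lower in IL13KO cocultures than in monocultures became 2. Thinning to equal depth, which left 26 members with values, gave 3 members lower in WT cocultures than in monocultures and 0 lower in IL13KO than in WT cocultures. The 8 members higher in IL13KO than in WT cocultures became 14 with limma-voom and 16 with only those groups in the fit. Leaving out each library in turn gave 16 to 22 members higher in IL13KO cocultures than in monocultures, 11 to 16 higher and 4 to 6 lower in WT cocultures than in monocultures, and 6 to 13 higher in IL13KO than in WT cocultures, the 13 without monoculture 1. Among called values, signs turned with the trends removed for Lama5 in IL13KO cocultures against monocultures (-0.29, -0.41 with least-squares loess and -0.027 with the block), for Col15a1 in WT cocultures against monocultures (-0.21, -0.38 and -0.23) and for Col4a2 in WT cocultures against monocultures (-0.086 with least-squares loess). Values not called also turned: Smoc2 (-0.27, and -0.41 and called with least-squares loess), Col4a3, Agrn and Tinagl1 in IL13KO cocultures against monocultures, Col4a1 (-0.42) and Npnt in WT cocultures against monocultures, and Nid1 between IL13KO and WT cocultures. The causes were not tested. Deviations of same-numbered libraries correlated by -0.126 to 0.028. These values showed no pairing by number but cannot exclude it, since the labels name no culture or animal for a library. The replicate block alone gave 18, 12 and 7 higher members in the 3 comparisons. Members under about 1 CPM rest on a few reads per library, where differences may not be detectable at this depth.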
